A study of Mus musculus with 24 samples.

Results

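Among cDNA clones that were measured at every stage of embryonic stem (ES) cell differentiation, 111 of 3527 (3.15%) gave a lower signal from female than from male cells both early and late in differentiation. Each clone has an M value on each array, the log2 of its female:male ratio with the median of all clones of that array set to 0. These clones were chosen by their measured M values in the ES cells: a clone was included when it had a value on all 20 ES cell arrays and when its mean M value was at or below -0.4 over the 8 arrays of days 0, 2 and 4 and again over the 10 arrays of days 12, 15 and 21. At -0.4 the male signal is 1.32-fold above the female signal. The 2 arrays of day 7, the 2 of lymphocytes and the 2 of inner cell mass (ICM) took no part in the choice, and the question put to them is whether the same clones were low there too. The array lists 15247 clones in all.

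Female ES cells carry a pair of active X chromosomes, and silencing of an X chromosome during differentiation brings their X-linked output close to that of male cells. Autosomal genes have the same number of copies in both sexes. On a two-colour array both sexes are co-hybridised to the same slide, so that each value compares the cells directly and says nothing of the level of the transcript in either sex.

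The ES cell arrays set female PGK12.1 cells, a hybrid between mouse strains, against male CCE/R cells, which are not a hybrid, both allowed to differentiate on non-adherent plastic without leukaemia inhibitory factor. There were 4 arrays at day 0, 2 each at days 2, 4, 7 and 15, 3 at day 12 and 5 at day 21, named here by the letters A to T. The 2 lymphocyte arrays (U and V) compared thymic lymphocytes of female and male Balb/c mice 4 weeks old, and the 2 ICM arrays (X and Y) compared amplified RNA of female and male Balb/c ICM from single blastocysts. The lines are not in the sample labels and were taken from the methods, matched by the number of arrays per day. Since each sex was represented by 1 ES cell line, sex, line and strain background cannot be told apart in these arrays. The study's figure legends describe the ES cell and female ICM replicates as biological and the male ICM replicates as technical.

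An array held values for 4985 to 13736 clones. The female sample carried Cy5 on 16 ES cell arrays and Cy3 on 4, namely A of day 0, N and O of day 15 and P of day 21. It carried Cy5 on all lymphocyte and ICM arrays, so only days 0 and 21 hold both orientations. All arrays were taken to give female over male, which is likely from the M value of the methods, but both arrays of day 15 have the same dyes and their direction has no dye swap to check it. ES cell arrays with the female sample in Cy5 correlated from as low as -0.52 (day 12 K with day 21 Q), and 7 of 120 such pairs lay below -0.3. Clones are identified in the files by name only, and 0 clone names matched the gene table used here. It is therefore not known here which clones are X-linked, Y-linked or derived from the same gene, and neither the labelled cells nor pathways could be checked against marker genes. In bulk RNA of this kind, fewer cells of a type and less RNA per cell cannot be told apart.

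At the 6 days that served to choose them, the clones are described without a test. Their early mean ran from -1.83 to -0.41 with a median of -0.56, a female signal 1.47-fold below the male signal. Their late mean ran from -1.44 to -0.40 with a median of -0.64, or 1.56-fold. The late mean was the lower of the pair in 70 of 111 clones, or in 40 with the 4 arrays that carry the female sample in Cy3 reversed. The median over the clones was -0.60 (day 0), -0.69 (day 2), -0.56 (day 4), -0.44 (day 12), -0.46 (day 15) and -0.88 (day 21). As read here, the median was thus below 0 at all 6 days. With those 4 arrays reversed, it would be -0.28 (day 0), 0.46 (day 15) and -0.68 (day 21) for the same clones. At day 21 the median of the 3527 clones on all 20 arrays was also below 0 (-0.13), whereas at the other days it lay between -0.01 and 0.03. On the 5 arrays of day 21 the median over the low clones was -0.58 (P), -0.89 (Q), -1.21 (R), -0.85 (S) and -0.93 (T), with P, the array with the female sample in Cy3, the least low.

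**Figure D1:**
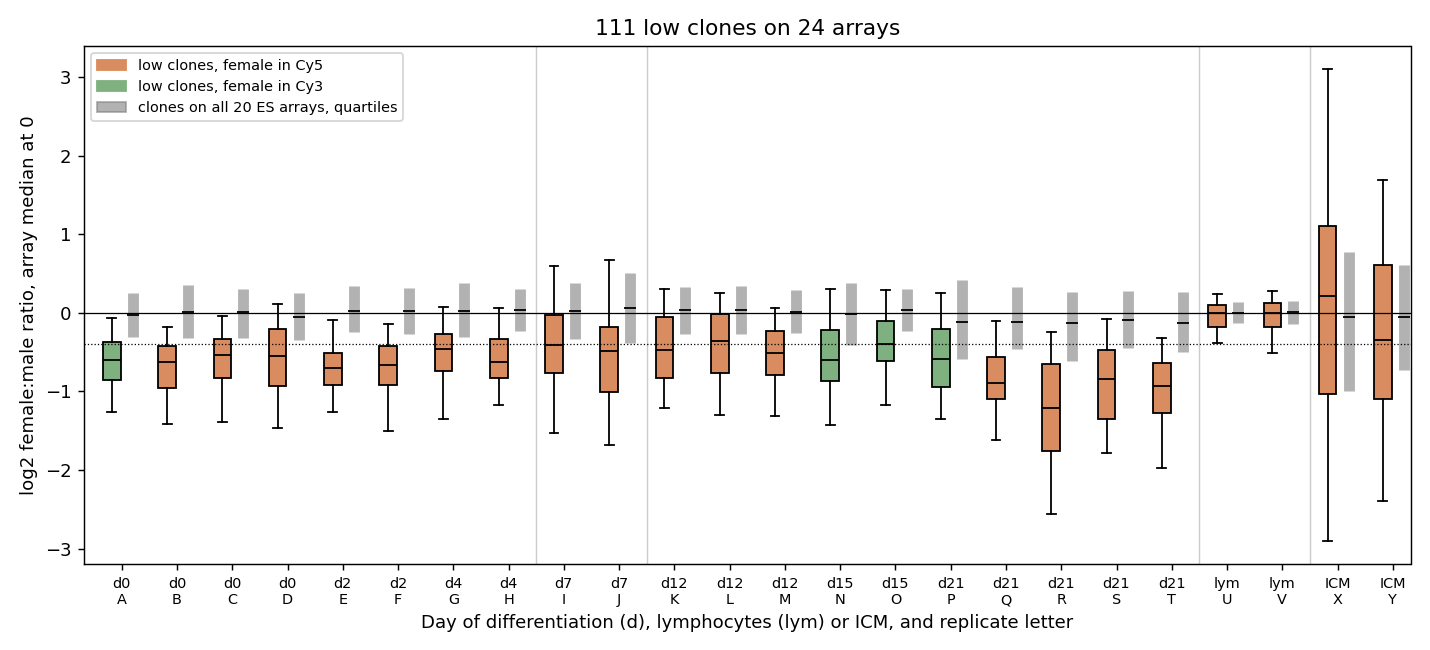
M values (log2 female:male ratio, y axis) of the 111 low clones on each of 24 arrays (x axis), with boxes for the quartiles, lines for the median and whiskers for the 5th and 95th percentiles, and grey bars for the quartiles of the 3527 clones on all 20 ES cell arrays. The dotted line marks -0.4. The boxes of the ES cell arrays lie below 0, with medians of -0.41 and -0.49 at day 7, and those of the lymphocyte arrays are narrow and centred on 0.

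A low mean did not require a low ratio on every array. The number of ES cell arrays on which a low clone was below 0 had a median of 18 of 20. It was 20 in 27 clones, 18 or 19 in 45, 15 to 17 in 34 and under 15 in 5, the fewest being 11. Clones below 0 on all 20 arrays made up 1.08% of all 3527 (38 clones). A day mean at or below -0.4 at each of the 6 days was found in 20 of the 111 clones (0.567% of all 3527), 26 reached it at 5 days, 31 at 4 days and 34 at 3 days or fewer. Some clones even had a day mean above 0, namely 2 clones (day 0), 1 (day 2), 7 (day 4), 15 (day 12), 12 (day 15) and 1 (day 21). With the 4 arrays of female Cy3 reversed, 0 of the 111 clones were below 0 on all 20 arrays, 0 were at or below -0.4 at each of the 6 days, and 99 had a day 15 mean above 0. These counts therefore hold only for the direction taken here. Read in that direction, the median over the low clones was -0.60 on A of day 0. On the day 0 arrays with the female sample in Cy5 it was -0.63 (B), -0.53 (C) and -0.56 (D). Array A took part in the choice of the clones, so that its likeness to B, C and D does not settle its direction.

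The low clones moved together only weakly from array to array. Over the 20 ES cell arrays, the correlation between 2 low clones had a median of 0.16 over 6105 pairs (quartiles -0.10 and 0.40), against 0.02 over pairs of all 3527 clones. It ranged from -0.81 to 0.98. A correlation above 0.9 occurred in 12 pairs made of 18 clones, or 0.197% of pairs, against 0.0394% of pairs of all 3527 clones. Whether such pairs are clones of the same transcript was not tested. The median SD of a low clone over the 20 arrays was 0.49, and that of all 3527 clones was 0.45. In the clone library, the low clones came from 71 of 159 source plates, with at most 4 on a plate. They made up 1.88% to 4.71% of the clones of a well row that had values on all 20 ES cell arrays. Of the low clones, 8 lay next to another low clone in the same row. Day 7 means were alike in H3030e05 and H3030e06 (-1.36 and -1.28) and in H3014g08 and H3014g09 (-0.19 and -0.16). They differed between H3021b02 and H3021b03 (0.18 and -1.51) and between H3031d01 and H3031d02 (-0.615 and 0.16). Whether low clones are neighbours more often than other clones, and whether neighbouring wells share material, was not tested.

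**Figure D2:**
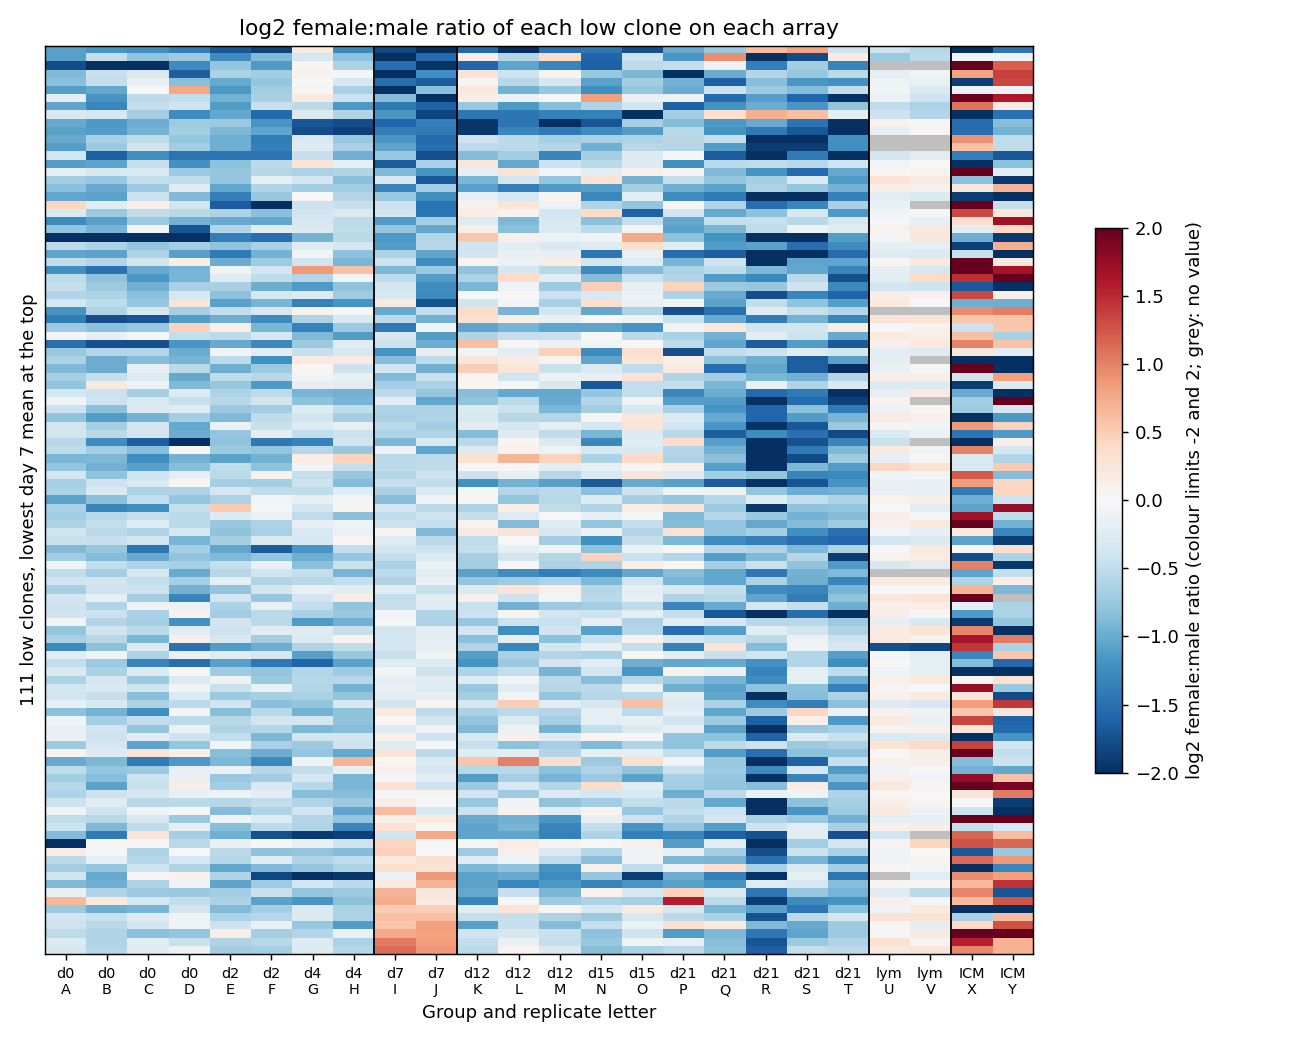
M value (log2 female:male ratio, colour, limited to -2 and 2) of each of the 111 low clones (rows, ordered by the day 7 mean) on each of 24 arrays (columns). Blue is lower in female cells, red is higher and grey is no value. The rows at the top are low on both day 7 arrays and those at the bottom are above 0 there, while the lymphocyte columns are pale in nearly all rows.

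Day 7 lies between the early and the late days and was not used to choose the clones. There, 21 of the 111 low clones were lower in female cells and 3 were higher (limma over all 20 ES cell arrays, adjusted p under 0.05). Of all 7122 clones tested, 2.74% were called lower and 7.06% higher, and among the 3527 clones on all 20 arrays 3.71% were called lower. At an unadjusted p under 0.05, 47 low clones were lower and 6 higher (9.44% and 15.4% of all tested). The median day 7 mean of the 111 clones was -0.47 (quartiles -0.82 and -0.16), against 0.02 over all clones tested. The low clones were thus lower as a set at a day that had no part in their choice, though only a minority passed the test singly. Most arrays that chose them carry the same dyes as those of day 7. A dye effect particular to a clone could therefore recur at day 7, which was not tested. Both day 7 arrays carry the female sample in Cy5, so that the day 7 values and their median are the same whichever way the 4 arrays with the female sample in Cy3 are read. The calls, which take their error from all ES cell arrays, were not. With the 4 arrays reversed, 3 of the same 111 clones were called lower at day 7, or 1 of the 71 clones that the limit then chose. Calls were then fewer among all clones tested too, at 0.646% lower and 3.15% higher. The reversal changes the sign of A and P but not of the other arrays of days 0 and 21, and the spread within days enters the error. Fewer calls are thus no change in the day 7 values.

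On the day 7 arrays themselves, the median over the low clones was -0.41 on I and -0.49 on J. Of the 111 clones, 85 were below 0 on I and 91 on J, and 81 were below 0 on both (29.7% of all clones tested). The day 7 mean was at or below -0.4 in 60 clones (19.7% of all tested), and 16 clones were above 0 on both arrays. The day 7 mean of the 21 clones called lower ran from -2.38 to -0.66 with a median of -1.36, a 2.57-fold lower signal in female cells. Of these 21, 7 were below 0 on all 20 ES cell arrays. The 21 include the neighbouring clones H3030e05 and H3030e06. The 3 clones called higher at day 7 had means of 0.79 to 0.99, although their early means were -0.50 to -0.43 and their late means -0.76 to -0.60. Another 70 clones had a mean below 0 that did not pass the test. With a median standard error of 0.28 at day 7, a shift of the size of the median clone was seldom enough to be called.

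The call count at day 7 depended on both arrays of that day. With array I left out, 13 low clones were called lower (1.68% of all tested), and with J left out, 5 were (0.354%). Array J had a wider spread over the 3527 clones (median absolute deviation 0.65, against 0.52 for I), and the 2 arrays correlated at 0.62 across the low clones. The label of I names removal of spots by hand and that of J does not. Across the 111 clones, the day 7 mean correlated with the early mean at r = 0.36 (Spearman's rho 0.39) and with the late mean at r = 0.22 (rho 0.17). These correlations describe clones of the same arrays over a range cut off at -0.4, and clones are not independent replicates. The 32 clones whose higher mean, early or late, lay within 0.05 below the limit of -0.4 had a median day 7 mean of -0.29, and 41 clones excluded by as little had -0.23. The nearest values on either side were -0.4003 and -0.3987.

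**Figure D3:**
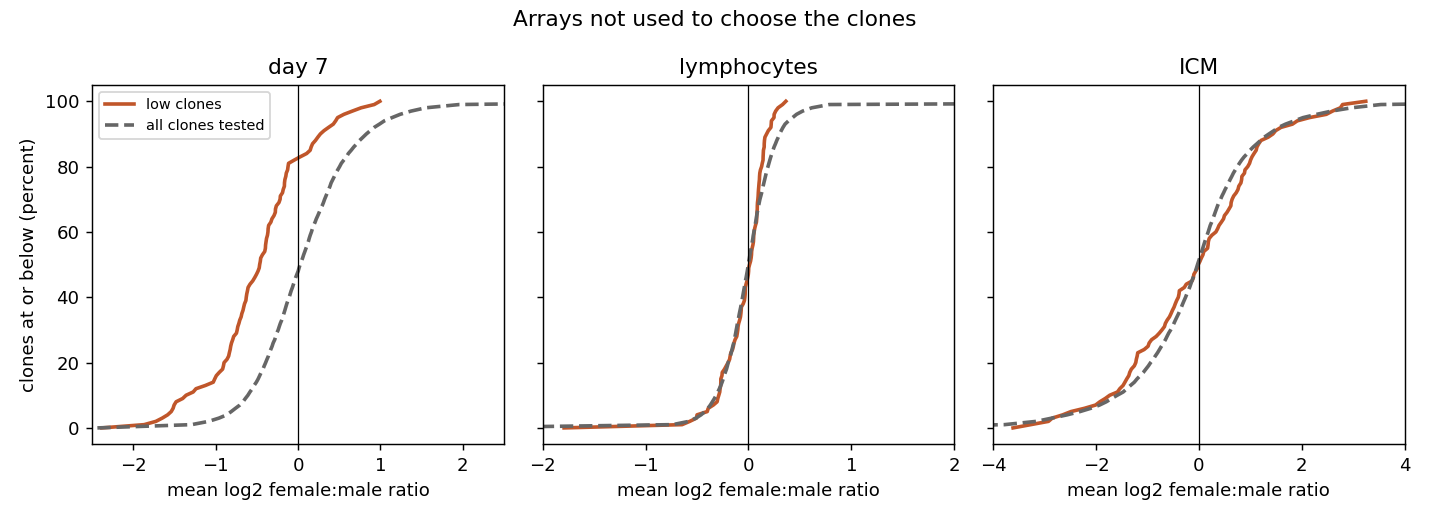
Cumulative percentage of clones (y axis) at or below a given mean M value (log2 female:male ratio, x axis) at day 7, in lymphocytes and in ICM, for the low clones (solid) and for all clones tested (dashed). At day 7 the low clones are shifted to lower values, with a median of -0.47 against 0.02 for all clones, and in lymphocytes and ICM both curves cross the middle of the scale close to 0.

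In lymphocytes, cells of adult mice of a single strain, the low ratio was not seen as a shift of the set. Both arrays held values for 100 of the 111 clones, 1 array did for 6 and neither for 5. Of the 100, 6 were lower in female lymphocytes and 0 higher (limma over the 2 lymphocyte arrays, adjusted p under 0.05), against 5.68% lower and 5.27% higher of all 7781 clones tested and 4.1% lower of those also on all 20 ES cell arrays. At an unadjusted p under 0.05, 23 were lower and 9 higher (18.7% and 17.98% of all tested), and robust moderation called 1 higher. The share called lower was therefore near that of all clones. The median lymphocyte mean of the low clones was 0.01, within a range of -1.79 to 0.36, and that of all clones tested was -0.0012.

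Most low clones gave a lymphocyte ratio close to 0. Their median was -0.0038 on array U and 0.0012 on V, with 54 of 105 and 50 of 101 clones below 0. The mean was less than 0.2 in size in 71 of the 100 clones, with a median size of 0.11 (0.15 over all clones tested). It was at or below -0.4 in 5 (5.8% of all tested), and 36 were below 0 on both arrays (38.9%). The 2 lymphocyte arrays correlated at 0.84 across the low clones and differed by a median of 0.11 per clone, against 0.41 between the arrays of day 7. The 6 clones called lower had means of -1.79 to -0.39 with a median of -0.54, and all 6 were below 0 on both arrays of day 7 too. A fit of all 24 arrays called 19 of 106 lower and 7 higher (14.7% and 13.3% of all 6675 tested). In that fit, 10 were lower and 4 higher without array U (8.89% and 8.09% of all tested), and 4 lower and 2 higher without V (4.94% and 3.62%).

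**Figure D4:**
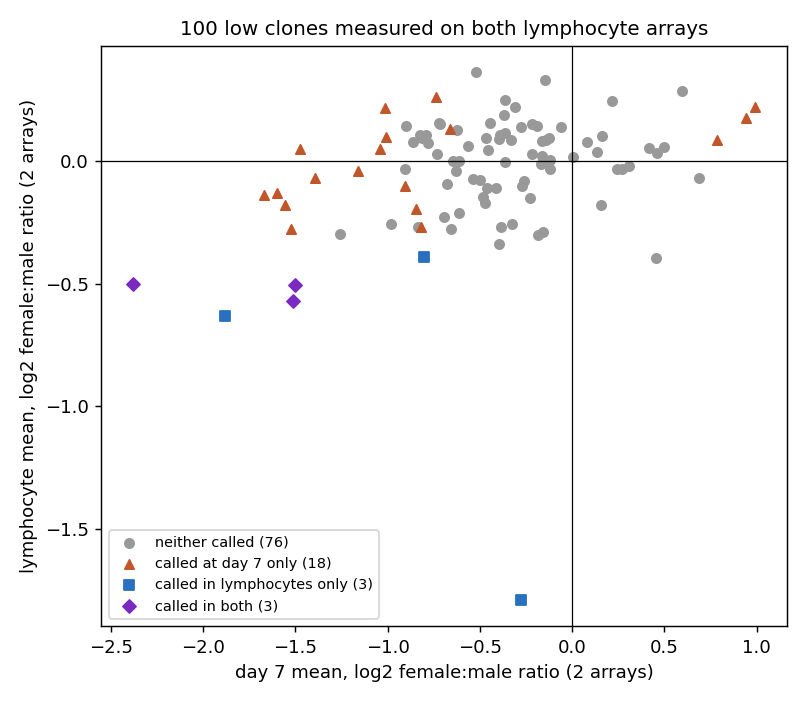
Mean M value (log2 female:male ratio) at day 7 (x axis, 2 arrays) and in lymphocytes (y axis, 2 arrays) of the 100 low clones measured on both lymphocyte arrays, marked by where they were called different between female and male cells. Of the 21 plotted clones called at day 7 (18 lower, 3 higher), 18 were not called in lymphocytes and 3 were.

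The clones called lower at day 7 were followed into lymphocytes. There the ratios of clones with values on all 20 ES cell arrays spread less (median absolute deviation 0.19 and 0.21, against 0.52 and 0.65 at day 7). Values nearer to 0 in lymphocytes are therefore not particular to the clones called lower at day 7. Clones picked for a very low day 7 mean would also tend to lie nearer to 0 on any other arrays. Of the 21 clones called lower at day 7, 18 were tested in lymphocytes, where 3 were called lower, 15 were not called and 0 were called higher. Their lymphocyte means ran from -0.57 to 0.26 with a median of -0.11, or -0.25 after all arrays were scaled to a common spread. The difference itself was tested in a fit of all 24 arrays with a weight for each kind of array. In this fit, 20 of 106 low clones were higher in lymphocytes than at day 7 and 2 were lower, against 3.12% higher and 7.36% lower of all 6675 clones tested. Over the 106 clones the median difference (lymphocytes minus day 7) was 0.47, and over all clones tested it was -0.03. On arrays scaled to a common spread, 20 were again higher and 2 lower, against 7.40% and 10.6% of all tested. Among the 20 clones the difference was 0.75 to 1.88 with a median of 1.10. Of these 20, 15 were also called lower at day 7, from the same day 7 arrays. Across the 100 clones, day 7 and lymphocyte means correlated at r = 0.30 (rho 0.29).

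The calls of these differences rested on the weights and on day 7, while the differences themselves do not change with the weights in clones measured on every array. The weights were 0.97 for ES cell arrays and 12.3 for lymphocyte arrays. Without weights, 0 low clones were called different between lymphocytes and day 7 (21 at an unadjusted p under 0.05, with 9.62% of all tested, against 50 with weights and 25.004% of all tested). Leaving out array J gave 5 clones called (1.99% of all tested), and leaving out I gave 11 (7.02%). Lymphocytes and ES cells also differ here in mouse strain and culture, so that kind of cell and strain cannot be told apart.

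In the ICM, from which ES cells are derived, no low clone was called. Of 110 low clones with values on both arrays, 0 were lower and 0 higher (limma over the 2 ICM arrays, adjusted p under 0.05), as were 0% of all 11515 clones tested. At an unadjusted p under 0.05, 11 low clones were lower and 7 higher (7.53% and 5.95% of all tested). In the fit of all 24 arrays, 2 were lower and 4 higher (2.05% and 2.02% of all tested), and without array Y 1 was lower and 3 higher (1.66% and 1.27%). The median over the low clones was 0.21 on array X and -0.35 on Y, on opposite sides of 0. The ICM mean of the clones ran from -3.61 to 3.24 with a median of -0.01, against -0.03 over all clones tested. It was at or below -0.4 in 44 clones (34.8% of all tested) and at or above 0.4 in 41. Both arrays were below 0 in 38 clones (31.9%), both above 0 in 35 and of opposite sign in 37.

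The 2 ICM arrays differed by a median of 0.94 per low clone and correlated at 0.38 across them. With a median standard error of 0.52, a shift of the size seen in ES cells was not detectable in a single clone. Between ICM and day 7, 3 of 106 low clones were higher in ICM and 2 were lower, with 1.81% higher and 2.53% lower of all 6675 clones tested. The median difference (ICM minus day 7) was 0.34 over the low clones and -0.14 over all. Without array X, 1 clone was called (0.744% of all tested), without weights 34 were (29.5%), and on arrays scaled to a common spread 10 were higher and 2 lower (2.20% and 3.84%).

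The named clones were picked for an extreme mean at day 7 or in lymphocytes. Their differences of lymphocytes from day 7 use the same values and are no independent test. Clone H3009d03 had the lowest day 7 mean of the clones called there. Its M values were -1.81 and -2.96 at day 7, a mean of -2.38 with a standard error of 0.40 (limma, adjusted p = 0.0012) and a female signal 5.22-fold below the male signal. Without array J it was not called (adjusted p = 0.12). At the earlier days they were -1.09, -1.17, -1.23 and -1.38 at day 0, -1.69 and -1.86 at day 2, and 0.18 and -1.29 at day 4. Replicates of day 0 and of day 2 lay close together, while the 2 arrays of day 4 disagreed in sign. Later they were -1.56, -2.07 and -1.50 at day 12, -1.43 and -1.75 at day 15, and -1.01, -0.75, 0.62, 0.78 and -0.42 at day 21. The clone was low on all arrays of days 7, 12 and 15, but above 0 on R and S of day 21, and its day 21 mean was -0.15 ± 0.81 (SD, n = 5). In lymphocytes it was low on both arrays, at -0.42 and -0.57 (mean -0.50, standard error 0.07, limma adjusted p = 0.037), and without V it was not called (adjusted p = 0.11). The difference of lymphocytes from day 7 was 1.88, with a standard error of 0.42 (adjusted p = 0.0072), and 1.11 on arrays scaled to a common spread (adjusted p = 0.068). In ICM it had -5.14 and -1.45, both low but far apart (adjusted p = 0.36).

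Clone H3004h05 had the lowest lymphocyte mean. Its M values in lymphocytes were -1.76 and -1.82, a mean of -1.79 with a standard error of 0.06 (limma, adjusted p = 0.015), or a 3.46-fold lower signal in female cells. At day 7 they were -0.38 and -0.17, which did not pass the test (adjusted p = 0.68). Both lymphocyte arrays were below every ES cell array of this clone. From day 0 on, the values were -1.27, -0.81, -0.27 and -1.49 at day 0, -1.13 and -0.98 at day 2, and -0.60 and -0.51 at day 4. They were -0.60, -1.30 and -0.36 at day 12, -0.17 and -0.47 at day 15, and -1.35, 0.26, -0.87, -0.08 and -0.34 at day 21. Of the 20 ES cell arrays 19 were below 0, with the exception at day 21 (Q). Lymphocytes minus day 7 gave -1.51 with a standard error of 0.33 (adjusted p = 0.0068), opposite in sign to that of H3009d03, and -3.66 on scaled arrays (adjusted p = 7.7e-07). The ICM arrays disagreed in sign, at 1.43 and -0.64 (adjusted p = 0.85).

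Clone H3079f06 went the other way at day 7, with 1.12 and 0.87, a mean of 0.99 and a standard error of 0.24 (limma, adjusted p = 0.014). It was not called without array I (adjusted p = 0.16), without J (adjusted p = 0.13) or with the 4 arrays of female Cy3 reversed (adjusted p = 0.12). It had -0.34, -0.57, -0.25 and -0.11 at day 0, -0.69 and -0.66 at day 2, and -0.27 and -0.57 at day 4. Afterwards it had -0.54, 0.05 and -0.29 at day 12, -0.86 and -0.64 at day 15, and -0.52, -0.83, -1.63, -0.48 and -0.52 at day 21. The 2 arrays of day 7 were the highest of its 20 ES cell arrays, and only 1 other, of day 12, was above 0. With the 4 arrays of female Cy3 reversed, 5 others would be above 0, the highest at 0.86. In lymphocytes its values of 0.19 and 0.25 did not pass the test (adjusted p = 0.089), and the difference of lymphocytes from day 7 was -0.77 with a standard error of 0.24 (adjusted p = 0.043), or -0.47 on scaled arrays (adjusted p = 0.24). Its ICM values were 0.96 and 0.70 (adjusted p = 0.53).

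**Figure D5:**
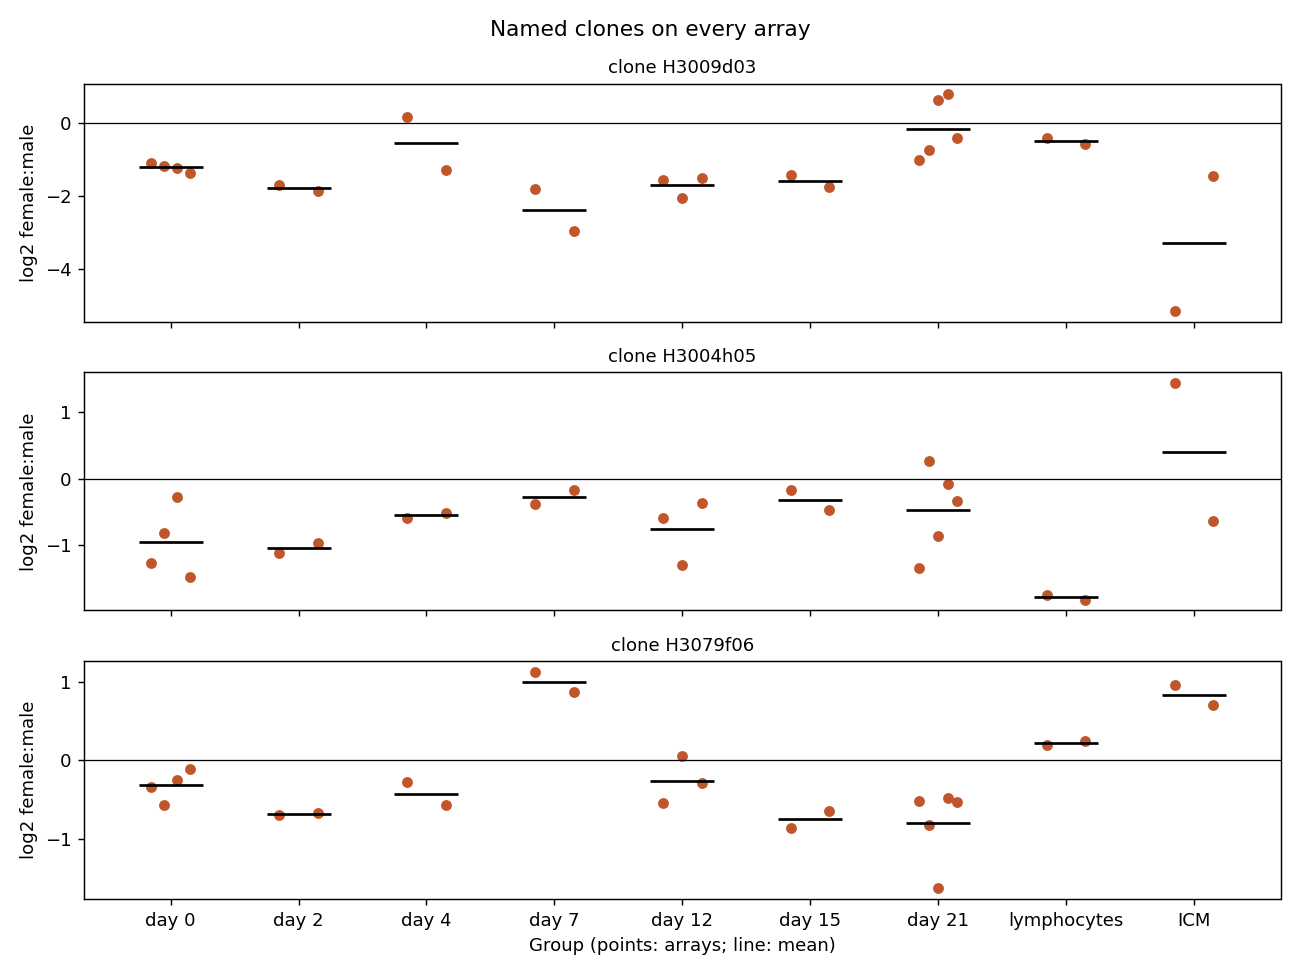
M values (log2 female:male ratio, y axes on different scales) of clones H3009d03, H3004h05 and H3079f06 on each array (points) with the mean of each group (lines), by day of differentiation and in lymphocytes and ICM (x axis). The day 7 points of H3079f06 are above all its other ES cell points, at 1.12 and 0.87, and the lymphocyte points of H3004h05 are below all its ES cell points, at -1.76 and -1.82.

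Clones chosen at the same limit in other ways are given for comparison, without a test between the sets. Those at or above 0.4 both early and late (102 clones) had a median day 7 mean of 0.92, and 56 were called higher and 0 lower. Those low only early (273 clones) had a median of -0.28, with 17 called lower and 10 higher, and those low only late (329 clones) a median of -0.14, with 21 lower and 7 higher. At day 7 the clones low throughout, with a median of -0.47, thus lay below clones low at only 1 end of the course. In lymphocytes the medians were 0.01 in clones low throughout, -0.04 in those high throughout, 0.01 in those low only early and -0.01 in those low only late, so that all 4 sets lay close to 0. For lymphocytes minus day 7, 52 of 91 clones high throughout were lower and 0 higher, with a median of -1.04. Among clones low only early, 20 of 264 were higher and 10 lower, and among those low only late 24 of 314 and 11. Of all clones tested, 3.12% were higher and 7.36% lower. A shift towards 0 from day 7 to lymphocytes was thus not particular to the low clones.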

How the data were processed

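Female and male cells were co-hybridised on 2-colour arrays of 15247 cDNA clones, 24 arrays in all. The deposited values are log2 ratios per clone and array. To make them, the authors scanned slides with balanced dyes, used GenePix 6.0 for alignment and extraction, discarded abnormal spots manually, and normalised in Gepas. The sample labels name removal of spots by hand on only some arrays, among them all lymphocyte and ICM arrays. How Gepas was set, whether background was corrected and why clones lack values was not found in the text read, which refers for details to a supplement not used here. Spot intensities were not analysed here, and the number of arrays limits the precision. A clone had to have a value on all 20 ES cell arrays to be chosen, which leaves out clones with a missing value on any of them.

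The median of all clones was subtracted from each array. Clones with a value at each of the 7 days (7122) were fitted with a separate mean for each day across the 20 ES cell arrays. Lymphocytes and ICM were fitted alone over clones on both arrays, and differences between kinds of cells in a model of 24 arrays with an array weight per kind (limma 3.58.1, R 4.3.3). Tests were two-sided with Benjamini-Hochberg adjustment over all clones tested, called at an adjusted p under 0.05, and the procedure was tested on simulated data. Median absolute deviations carry R's default scaling. The clones and lists were chosen with earlier results of these data known. Since no table used here pairs clones with genes, lists of genes were not computed, and named were the lowest clone at day 7, the lowest in lymphocytes and the highest at day 7 among those called there with values on all 24 arrays; no clone was called higher in lymphocytes.

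Alternatives were other centring, scaling, direction, limits, filters, covariates (dye orientation, removal of spots by hand), weights, robust moderation (statmod 1.5.0) and each array left out in turn. Chosen after seeing the data were the choice of clones without day 15, without array R, and without the 4 arrays with the female sample in Cy3, and the scaling of arrays in the comparison of kinds of cells.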

Additional observations from a re-analysis of the deposited data

Results flagged for a closer look

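By a test of the difference itself, the M values of 22 of 106 low clones differed between lymphocytes and day 7 (20 higher, 2 lower in lymphocytes). Of all 6675 clones tested, 3.12% were higher and 7.36% lower in lymphocytes. Between ICM and day 7, 5 of 106 low clones differed (3 higher, 2 lower in ICM). That was near the share of all clones, of which 1.81% were higher and 2.53% lower in ICM. Of the named clones, the difference of lymphocytes from day 7 was 1.88 on the log2 scale in H3009d03, -1.51 in H3004h05 and -0.77 in H3079f06. Each of these clones was named for an extreme value at day 7 or in lymphocytes. The arrays that gave that value also enter the difference, so its size and sign are not independent of the choice. Dixon's test was run on the arrays of day 0 and of day 21 for the median of the low clones and for each named clone (8 tests), and no array passed its limit.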

How the results depend on the processing

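Each test had 2 arrays of its own, and with 1 left out the other was assumed to vary like the rest. The count of low clones lower at day 7 (21) was 5 to 13 with an array of day 7 left out and 1 when the values were taken as Cy5:Cy3 and the 4 arrays with the female sample in Cy3 reversed, which left 71 clones of which 41 were among the 111. In lymphocytes the count (6) was 14 of 188 at a limit of -0.3, 19 with all 24 arrays in 1 fit, and 4 to 10 with an array left out of that fit. In ICM it (0) was 2 in that fit and 0 to 1 with an array left out. Clones called higher in that fit numbered 7 in lymphocytes (2 to 4 with an array left out) and 4 in ICM (0 to 3). Clones called different between lymphocytes and day 7 (22) numbered 0 without array weights and 5 to 20 with an array left out, and between ICM and day 7 (5) they numbered 34 and 1 to 7, and 12 on arrays scaled to a common spread. Of the alternatives to these counts, 47 stayed within 1.5 times the value given and 14 did not. This tally compares counts over sets of clones of different size, and includes ICM counts that stayed at 0. The fit of 24 arrays called 14.7% of all clones lower in lymphocytes and 13.3% higher, and 2.05% and 2.02% in ICM. Without weights 0.899% of all were called between lymphocytes and day 7, and 29.5% between ICM and day 7 (6.04% on scaled arrays). At a limit of -0.3 the share of all clones lower in lymphocytes stays 5.68%.

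The number of low clones (111) was 116 without centring, 204 at a limit of -0.3, 53 at -0.5 and 98 (without R of day 21) to 128 (without M of day 12) with an array left out. Chosen without day 15 there were 135 (109 kept), and without the arrays with the female sample in Cy3 165 (101 kept). Of these 165, 25 of 160 tested were lower at day 7 and 6 higher (2.74% and 7.06% of all clones tested). With all clones on all 20 arrays as the only clones tested, 30 of the 111 low clones were lower at day 7. The share of all clones was not computed for that fit.

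In ICM, H3004h05 had -0.64 without array X and 1.43 without Y. For ICM minus day 7, it had -0.36 without X and 1.71 without Y, and H3009d03 had 0.93 without X and -2.76 without Y. The values without X were of opposite sign to those with both arrays, as was that of H3009d03 on arrays scaled to a common spread (0.68). H3009d03 was not called at day 7 without J (-1.81, adjusted p = 0.12) or in lymphocytes without V (-0.42, adjusted p = 0.11), and H3079f06 was not called at day 7 without I (0.87, adjusted p = 0.16), without J (1.12, adjusted p = 0.13) or with those 4 arrays reversed (0.99, adjusted p = 0.12). The difference of lymphocytes from day 7 was called in none of the named clones without weights or without J, and in H3079f06 in no fit with an array left out. No paired analysis was possible because each array holds both sexes and the replicate letters are not shared between groups. The cause of these changes was not tested.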
